A study of Mus musculus with 25 samples.

Results

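The miR-10, miR-99/100 and miR-125 microRNA genes were examined in mouse sperm RNA. They are 8 of the 24358 genes in the deposited table, and 8 of its 1157 microRNA genes, namely Mir10a, Mir10b, Mir99a, Mir99b, Mir100, Mir125a, Mir125b-1 and Mir125b-2. They were selected by gene symbol, and the selection rested on measured values, because Mir10b had the highest estimated count of all genes in 1 of the 5 conditions, C57.D300.F2. The level of Mir10b in that condition is therefore a description, and the same holds for its ratios against the other conditions.

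The samples were sperm of the cauda epididymis of males aged 14 weeks, with 5 libraries in each of 5 conditions. The C57BL/6J controls (C57.CTL.F1) and the FVB/N controls (FVB.CTL.F1) were first-generation sons of females of these strains that had received corn oil alone. The exposed C57BL/6J sons (C57.D300.F1) and the exposed FVB/N sons (FVB.D300.F1) came from females that had received DEHP, the plasticiser bis(2-ethylhexyl)phthalate, in corn oil at 300 mg/kg/day by mouth. Both treatments ran from embryonic day 9 to day 19. The C57BL/6J grandsons (C57.D300.F2) were the next generation, sired by exposed F1 males and not dosed themselves, and no second-generation vehicle group was analysed here. The labels mark 10 libraries, those of the C57BL/6J controls and the exposed C57BL/6J sons, as a re-analysis and not the other 15, so a difference between both library sets and a difference between conditions cannot be told apart wherever a comparison crosses them. The sperm swam out of cut epididymides and were not sorted.

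Each gene had 1 estimated fragment count per condition, which Cuffdiff computed from the 5 libraries together, and a variance of that count under its model. The square root of this variance is called the model SD below. It is no SD between animals, and since single libraries have no values of their own here, no replicate spread, test or p-value is given. The counts were scaled between libraries and not divided by gene length. They summed to between 6921688 and 8602900 per condition, and Cuffdiff reported failed estimates for 71 genes, among them 0 of the 8 genes. A count of 3 was used as the limit of detection, which covers counting error only.

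MicroRNAs are short RNAs cut from hairpin transcripts. Loaded on an Argonaute protein, they pair with messenger RNAs mainly through the seed, bases 2 to 8 of the mature strand, and lower the stability or translation of these messengers. The miR-10, miR-99/100 and miR-125 families are old relatives. Copies of miR-99/100, let-7 and miR-125 lie together in clusters, while Mir10a and Mir10b lie in the Hoxb and Hoxd clusters, whose genes pattern the body axis. Sperm gain part of their small RNA during passage through the epididymis, where vesicles of the epithelium deliver microRNAs. The mature 5p strands are shown because their near identity limits how far reads can be assigned to a single gene. The seed is in capitals, written 5′ to 3′, and the sequences are those of RefSeq for GRCm38.p6, which held all 8 genes.
miR-10a-5p: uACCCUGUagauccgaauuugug
miR-10b-5p: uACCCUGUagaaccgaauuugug
miR-99a-5p: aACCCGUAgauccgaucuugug
miR-99b-5p: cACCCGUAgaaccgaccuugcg
miR-100-5p: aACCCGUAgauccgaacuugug
miR-125a-5p: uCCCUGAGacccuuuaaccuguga
miR-125b-5p: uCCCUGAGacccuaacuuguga

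The 8 genes gave 7 distinct 5p strands with 3 seeds. Counted from 1 at the 5′ end, miR-10a-5p and miR-10b-5p differ by U12A alone, with the miR-10a base first. miR-99a-5p and miR-100-5p differ by U16A alone, with the miR-99a base first. From miR-99a-5p to miR-99b-5p the changes are A1C, U11A, U16C and U21C. Mir125b-1 and Mir125b-2 give the same 5p strand, so their reads can be told apart only in the rest of the hairpin. How the authors' counting split reads shared by such genes is not given in the sources used here, and the split between Mir10a and Mir10b, between Mir99a and Mir100 and between both Mir125b genes is uncertain to that extent. The counts are per gene and do not separate the 5p from the 3p arm.

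By RefSeq on GRCm38.p6, all 8 genes lie on the plus strand. Mir10b, at chr2:74726070-74726137, lies in introns of Hoxd3 and Hoxd4. Mir10a, at chr11:96317165-96317274, overlaps no annotated gene and lies 993 bases from Hoxb4. Mir99b (chr17:17830188-17830257) lies in an intron of Spaca6, a gene of sperm and egg fusion, and Mir125a (chr17:17830812-17830879) in an exon of it, with 554 bases between both microRNA genes. Mir99a (chr16:77598936-77599000) and Mir125b-2 (chr16:77646273-77646343) lie 47272 bases apart in introns of the non-coding gene Mir99ahg. Mir100 (chr9:41531425-41531504) and Mir125b-1 (chr9:41581926-41582002) lie 50421 bases apart. Reads from the exon of Spaca6 that holds Mir125a could be assigned to either gene.

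Mir10b and Mir10a held nearly all of the counts of the 8 genes, and their share was high in the 3 C57BL/6J conditions and low in both FVB/N conditions. Mir10b had an estimated count of 48454.5 in the C57BL/6J controls, 40273 in the exposed C57BL/6J sons and 88039 in the C57BL/6J grandsons, against 5222 in the FVB/N controls and 8195 in the exposed FVB/N sons. Mir10a had 31190.4, 28919 and 35896 in the same 3 C57BL/6J conditions, and 2909 and 4199 in the FVB/N controls and the exposed FVB/N sons. The lowest C57BL/6J count of each gene thus stood above its highest FVB/N count, an order that no longer held when the conditions were scaled to sperm markers, as given further on, and the model SDs were wide. For Mir10b the model SD was 43793 in the C57BL/6J controls, 44028 in the exposed C57BL/6J sons and 99176 in the C57BL/6J grandsons, close to the counts in size, and 2329 and 4619 in the FVB/N controls and the exposed FVB/N sons. Between no neighbours in the order of levels of Mir10a or Mir10b did the difference exceed its model SD. In these unsorted bulk samples, fewer cells of a type and less RNA per cell cannot be told apart.

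By count, Mir10b ranked 1st of all genes in the C57BL/6J grandsons, just ahead of Lars2, a mitochondrial leucyl-tRNA synthetase gene, with 79428, among genes with an estimate. In this condition 36 genes had a failed estimate, among them Crisp1. Its rank was 10 in the C57BL/6J controls and 5 in the exposed C57BL/6J sons, but 151 in the FVB/N controls and 96 in the exposed FVB/N sons. Mir10a and Mir10b together held 62.1%, 55.2% and 65.7% of all microRNA gene counts in the C57BL/6J controls, the exposed C57BL/6J sons and the C57BL/6J grandsons, and 12.2% and 11.1% in the FVB/N controls and the exposed FVB/N sons. In each condition they held between 97.3% and 99.2% of the counts of the 8 genes. In the FVB/N controls the microRNA genes with the highest counts were Mir6240 with 18306, Mir6236 with 16221 and Mir5099 with 13007, and in the exposed FVB/N sons Mir6236 led with 34245. In the C57BL/6J controls the first microRNA gene after the Mir10 genes was Mir6240, with 10289. All microRNA genes summed to 128191 counts in the C57BL/6J controls and 66713 in the FVB/N controls. The shares above therefore also depend on genes such as Mir6240, as does scaling to the summed microRNA counts further on. Whether the reads assigned to these genes came from mature microRNAs was not tested.

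The other 6 genes were at lower counts, and they did not share 1 order of conditions. Mir99b had 1045 in the C57BL/6J controls, 579 in the exposed C57BL/6J sons, 259.6 in the C57BL/6J grandsons, 75.3 in the exposed FVB/N sons and 42.7 in the FVB/N controls. Among the 8 genes, only Mir99b had differences above the model SD between all 4 pairs of neighbours in this order. Mir100 had 395 in the C57BL/6J controls, 289 in the exposed C57BL/6J sons, 55.2 in the C57BL/6J grandsons, 9.90 in the exposed FVB/N sons and 3.16 in the FVB/N controls. The last value lay just above the limit of detection. Mir99a had 358 in the C57BL/6J controls, 308 in the exposed C57BL/6J sons, 149 in the C57BL/6J grandsons, 59.0 in the exposed FVB/N sons and 39.6 in the FVB/N controls. Of Mir99a and Mir100, neither the C57BL/6J controls and the exposed C57BL/6J sons nor both FVB/N conditions differed beyond the model SD, whereas the C57BL/6J grandsons differed beyond it from both neighbours in the order. All 3 genes of the miR-99/100 seed therefore had their lowest C57BL/6J level in the C57BL/6J grandsons, the condition in which both Mir10 genes had their highest, although Mir10a did not when scaled to the summed microRNA counts and Mir99a and Mir99b did not when scaled to sperm markers.

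Mir125a followed the order of the Mir10 genes. It had 411 in the C57BL/6J controls, 350.1 in the exposed C57BL/6J sons, 467 in the C57BL/6J grandsons, 65.4 in the FVB/N controls and 129 in the exposed FVB/N sons. The differences between the exposed C57BL/6J sons and the exposed FVB/N sons and between both FVB/N conditions exceeded the model SD, and those among the 3 C57BL/6J conditions did not. Mir125b-2 had 14.1, 17.4 and 22.7 in the C57BL/6J controls, the exposed C57BL/6J sons and the C57BL/6J grandsons, and 9.25 and 8.21 in the FVB/N controls and the exposed FVB/N sons. Mir125b-1 lay between 2.52 and 7.97 in the 5 conditions, which is too low for a ratio. Neither Mir125b gene had a difference between neighbouring conditions above its model SD.

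**Figure D1:**
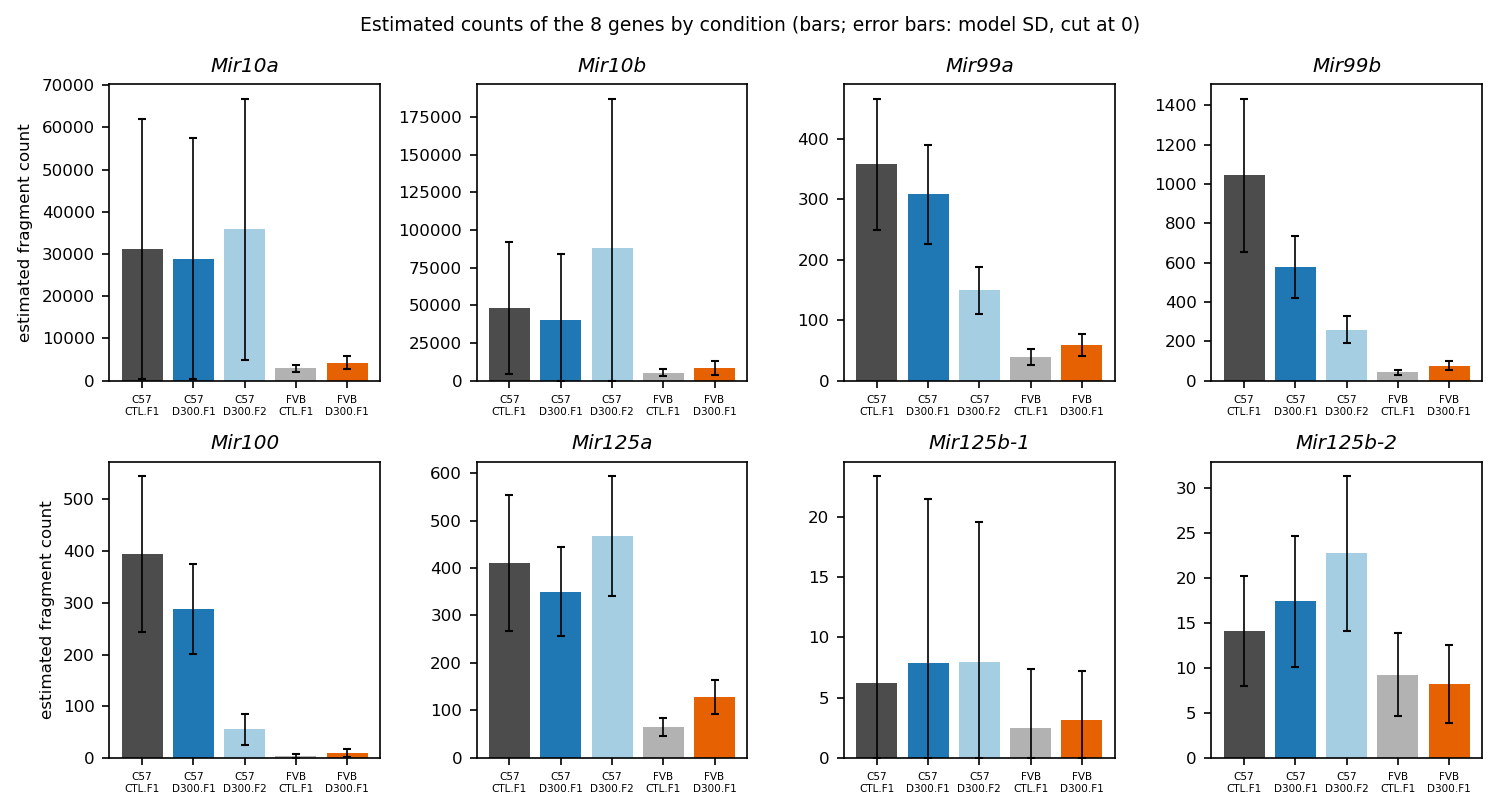
Estimated fragment count (vertical axes, linear, each panel with its own scale) of the 8 genes in the 5 conditions, with 1 value per condition as bars and the model SD of Cuffdiff as error bars cut at 0. Both Mir10 genes and Mir125a are highest in the C57BL/6J grandsons, Mir99a, Mir99b and Mir100 are highest in the C57BL/6J controls, and each of these 6 genes is lowest in the FVB/N controls, for example Mir10b with 5222 against 48454.5 in the C57BL/6J controls.

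Divided by the length of the RefSeq hairpin, Mir10b had 713 counts per base in the C57BL/6J controls and 76.8 in the FVB/N controls. Mir10a had 284 and 26.4. The annotated lengths are 68 bases for Mir10b and 110 for Mir10a, while both 5p strands have 23 bases. Levels of different genes on this scale therefore depend in part on the annotated length. Mir99b had 14.9 and 0.610 counts per base in the C57BL/6J controls and the FVB/N controls, and Mir125a had 6.04 and 0.962. On this scale Mir10b exceeded Mir10a by 2.25 to 3.97 times across the 5 conditions, and by plain counts 1.39 to 2.45 times. Mir125b-2 was between 0.116 and 0.320 counts per base, so most counts assigned to the miR-125 genes were those of Mir125a. The split of reads shared by both Mir125b genes is uncertain, so few assigned counts need not mean little miR-125b. The let-7 genes of the same clusters were close to the limit of detection. Mirlet7c-1, next to Mir99a, had between 4.47 and 18.5 counts, Mirlet7e, with 94 bases to Mir99b, between 4.74 and 8.70, and Mirlet7a-2, next to Mir100, at most 2.22. High counts of Mir99a, Mir99b and Mir100 in the C57BL/6J controls thus went with few counts assigned to their cluster partners. How reads shared between let-7 genes were split is not given either. Mirlet7a-2 had 1.01 counts with a model SD of 5.29 in the C57BL/6J controls. Few assigned counts therefore need not mean little let-7.

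Ratios between conditions were taken as log2 of (count + 1) for genes with at least 10 counts in 1 of both conditions, and called at 2 log2 units or more in either direction. Mir125b-1 never passed this minimum and has no ratio. Between the strains, Mir100 and Mir125b-2 passed it only through the C57BL/6J conditions, where their counts were higher. The tallies and medians between the strains are therefore descriptions.

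Between the strains without DEHP, most of the 8 genes had far lower deposited counts in the FVB/N controls than in the C57BL/6J controls. Of 7 genes with a ratio, 6 were lower by at least 2 log2 units and 0 higher, where 8.88% of all 17086 genes with a ratio were called lower and 1.44% higher. Among all 120 microRNA genes with a ratio, 42 were called lower and 6 higher, with a median of -1.03. The median of the 7 genes was -3.21, and that of all genes -0.03. Mir10b was 9.28-fold lower, with a log2 ratio of -3.21, and Mir10a had a log2 ratio of -3.42. Their differences of 43232 and 28281 counts were nevertheless within the model SD of a difference. Mir99b was 24.5-fold lower, at -4.58 log2 units, and Mir125a had -2.63. For Mir100 the ratio was 124.8-fold, with a 95% exact interval of 44.7 to 641 that covers counting error only, because it rests on 3.16 counts in the FVB/N controls. Mir125b-2 had a log2 ratio of -0.56 and was not called.

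With DEHP in both strains, most of the genes were again lower in FVB/N, by deposited counts, and turned above 0 for all but Mir100 when scaled to sperm markers. In the exposed FVB/N sons against the exposed C57BL/6J sons, 5 of 7 genes were called lower and 0 higher, against 7.67% lower and 2.65% higher among all genes. The median of the 7 genes was -2.37, that of all microRNA genes -0.71 and that of all genes -0.07. Mir10b had a log2 ratio of -2.30, Mir10a of -2.78, Mir99a of -2.37, Mir99b of -2.93 and Mir100 of -4.73. Mir125a, at -1.44, and Mir125b-2, at -0.998, were not called. This comparison has no libraries in common with the one without DEHP. Both cross the library sets.

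Sperm markers moved with these strain differences. The 9 markers of sperm and spermatids, such as the protamines Prm1 and Prm2 that pack sperm DNA and the tail protein gene Odf1, were all detected in every condition. Their summed counts were 84474 in the C57BL/6J controls, 70913 in the exposed C57BL/6J sons, 28507 in the C57BL/6J grandsons, 6989 in the FVB/N controls and 8332 in the exposed FVB/N sons. From the C57BL/6J controls to the FVB/N controls, 9 of 9 were called lower, with a median of -3.03, beside -3.21 for the 7 genes. When the conditions were scaled to the summed sperm markers, a setting chosen after seeing the data, the median log2 ratio of all genes became 3.48, and that of the 7 genes became 0.38, with Mir10b at 0.38, Mir10a at 0.17, Mir99a at 0.42 and Mir125a at 0.94. Mir99b and Mir100 stayed below 0 in this comparison under each scaling. Smcp, Odf1 and Prm2 made up most of the marker sum, with 35149, 21227 and 20903 counts in the C57BL/6J controls. Single markers ran from -4.29 for Smcp to -2.29 for Tnp2, a range that holds Mir10b at -3.21. Counted per summed sperm markers, Mir10b was thus not lower in the FVB/N controls, but against single markers the direction depends on the marker. Relative to all genes the 7 genes were lower under either scaling, which scaling cannot change because it moves all genes of a condition alike. The part of sperm number in the strain difference was not tested.

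Marker lists of other cell types differed between conditions as well, in several orders. The 8 smooth muscle and stroma markers summed to between 28697 and 42761, with 0 called in any of the 7 comparisons. Over all genes, 0.0182% to 8.88% were called per direction and comparison. The 9 epididymal markers with estimates in every condition summed to between 147 and 323 in 4 conditions and to 38922 in the exposed FVB/N sons, where the count of Mir10b was 8195. This leaves out the epididymal gene Crisp1, which had 108274 counts in the C57BL/6J controls and 219328 in the exposed FVB/N sons and failed estimates in the other 3 conditions. The 7 seminal vesicle markers summed to 195490 in the C57BL/6J controls and to between 664 and 2097 elsewhere. The 9 liver markers summed to 179029 and 157873 in the C57BL/6J controls and the exposed C57BL/6J sons, to 4230 in the C57BL/6J grandsons, and to 951 and 628 in the FVB/N controls and the exposed FVB/N sons. The 6 leukocyte markers summed to 4599, 5094 and 1876 in the 3 C57BL/6J conditions, and to 1081 and 1507 in the FVB/N controls and the exposed FVB/N sons. The sperm marker sums had the same order of conditions as Mir99a, Mir99b and Mir100, and the liver and leukocyte sums were likewise high in the C57BL/6J controls and exposed sons, lower in the grandsons and lowest in FVB/N. The 7 red cell markers summed to between 1418 and 6954, highest in the exposed FVB/N sons, with Hba-a1 under the limit of detection in each condition. The part of these tissues in the levels of the 8 genes was not tested.

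**Figure D2:**
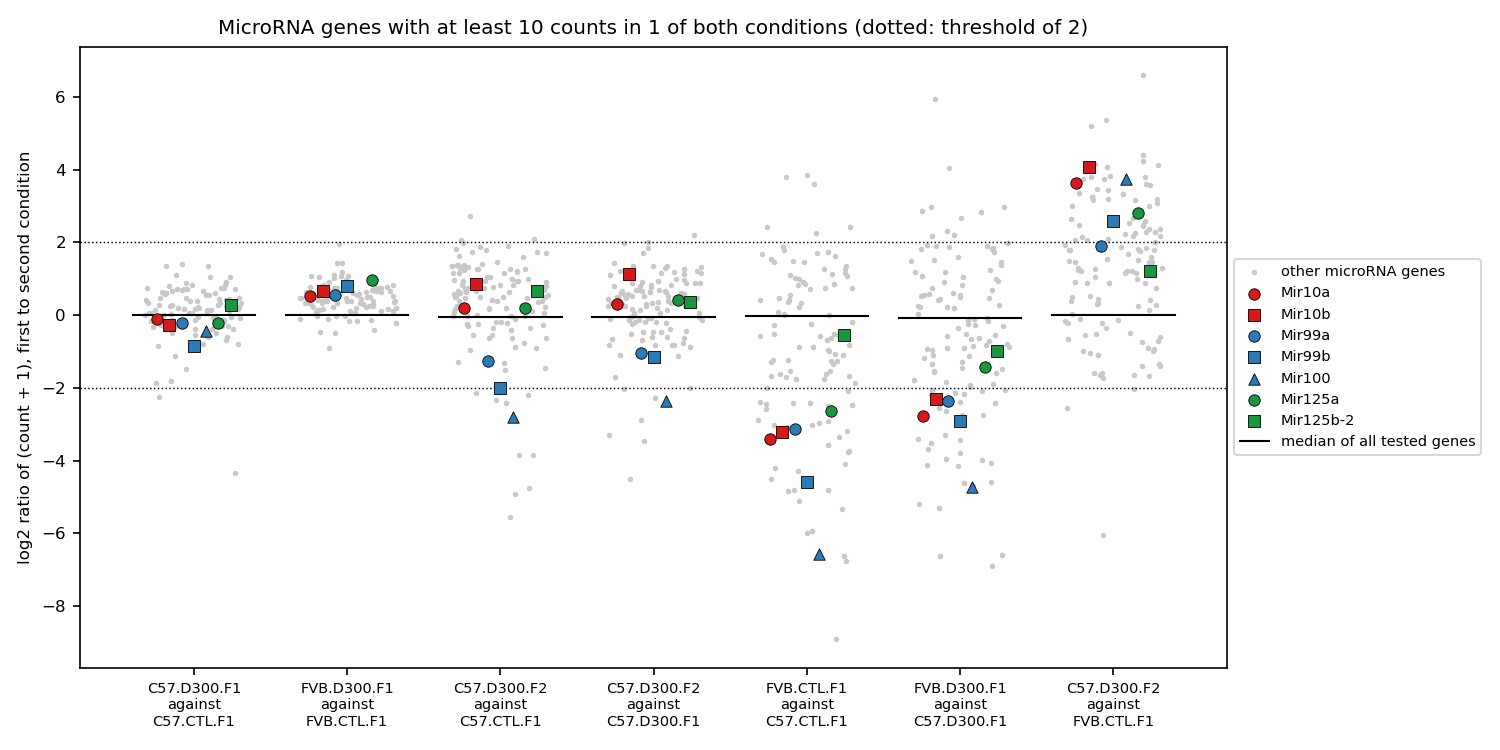
Log2 ratio of (count + 1) in the 7 comparisons (horizontal axis) for microRNA genes with at least 10 counts in 1 of both conditions, as grey points, with the genes described here as coloured symbols by seed, the median of all tested genes as a black line and the threshold of 2 as dotted lines. In the FVB/N controls against the C57BL/6J controls 6 of 7 genes lie below -2. This direction turned for Mir10a, Mir10b, Mir99a and Mir125a under scaling to the summed sperm markers, in which Smcp, Odf1 and Prm2 weigh most. In both DEHP comparisons within a strain none of the genes lies beyond 2.

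With prenatal DEHP, none of the 8 genes passed the threshold within a strain. In the exposed C57BL/6J sons against the C57BL/6J controls, where both conditions belong to the re-analysed libraries, 0 of 7 genes were called, against 0.0357% higher and 0.256% lower among 16825 genes. The log2 ratios ran from -0.85 for Mir99b to 0.29 for Mir125b-2, with -0.11 for Mir10a and -0.27 for Mir10b. The median of the 7 genes was -0.23, against 0.14 for 113 microRNA genes and -0.01 for all genes. The fall of Mir99b by 466 counts was the only one above its model SD, which was 421. The sign of Mir10a turned under scaling to equal totals, to the other genes or to sperm markers, and those of Mir99a and Mir125a turned under scaling to sperm markers.

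In the exposed FVB/N sons against the FVB/N controls, neither marked as a re-analysis, 0 of 5 genes with at least 10 counts were called. Over all 16471 genes with a ratio, 0.662% were called higher and 0.0182% lower. All 5 log2 ratios were above 0, with 0.53 for Mir10a, 0.65 for Mir10b, 0.56 for Mir99a, 0.80 for Mir99b and 0.97 for Mir125a. This direction was shared with microRNA genes in general, of which 89 of 102 had a ratio above 0, with a median of 0.47. In the same comparison 9 of 9 epididymal markers with a ratio were called higher, with a median of 7.81, and 4 of 5 red cell markers, with a median of 2.33. Of the sperm markers, 8 of 9 had a ratio above 0, with a median of 0.50 and 0 called. The part of these cells in the microRNA ratios was not tested. When the conditions were scaled to the summed microRNA counts, the ratios of Mir10a, Mir10b and Mir99a were below 0. Only Mir99b and Mir125a differed beyond the model SD, by 32.6 counts and by 63.4 counts. Mir100 had 3.16 and 9.90 counts in the FVB/N controls and the exposed FVB/N sons and did not reach the minimum.

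The 5 genes with a ratio in both strains had values below 0 in C57BL/6J and above 0 in FVB/N by deposited counts, but Mir10a, Mir10b and Mir99a were below 0 in both strains when scaled to the summed microRNA counts. The log2 ratio with DEHP in FVB/N minus that in C57BL/6J was 0.64 for Mir10a, 0.92 for Mir10b, 0.78 for Mir99a, 1.65 for Mir99b and 1.20 for Mir125a. Mir100 and Mir125b-2 had no ratio in FVB/N. In a wider count by deposited counts that took in both, 6 of 7 genes had these signs. The same signs were found in 47 of 134 microRNA genes, or 35.1%, and in 26.5% of all 17556 genes. The median of the difference, FVB/N minus C57BL/6J, was 0.92 for the 7 genes, 0.26 for all microRNA genes and 0.03 for all genes. Mir100 and Mir125b-2 passed the minimum of this wider count only through C57BL/6J conditions. In FVB/N, Mir100 had 3.16 and 9.90 counts, a difference within its model SD of 8.72. The wider count and its median are therefore descriptions. With 1 value per condition, the difference between strains was not tested, and the sign of several of these small ratios turned with the scaling as given above.

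In the C57BL/6J grandsons against the other C57BL/6J conditions, the genes called by deposited counts were of the miR-99/100 seed. Against the C57BL/6J controls, 2 of 7 genes were called lower and 0 higher, against 3.61% lower and 0.584% higher among all 17114 genes. Among 128 microRNA genes 11 were called lower and 3 higher, with a median of 0.51. Mir10b was 1.82-fold higher in the C57BL/6J grandsons, a difference of 39584 counts with a model SD of 108414, and Mir10a had a log2 ratio of 0.20. Mir125a had a log2 ratio of 0.19. Mir100 was 7.15-fold lower, at -2.82 log2 units, Mir99b had -2.01 and Mir99a -1.25. Mir99b lay barely past the threshold and was no longer called under scaling to equal totals, to the upper quartile, to the other genes or by median-of-ratios factors, or with 10 added to each count. Mir10a and Mir125a turned below 0 under scaling to the summed microRNA counts, and Mir99a turned above 0 under scaling to sperm markers. This comparison crosses the library sets, shares the C57BL/6J controls with the strain comparison, and sets a second generation against a first.

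Against the exposed C57BL/6J sons, the generation before in the same lineage, 1 of 7 genes was called lower and 0 higher, against 3.30% lower and 0.333% higher among 17133 genes. The called gene was Mir100, at -2.37. Mir99a had a log2 ratio of -1.04, Mir99b of -1.15, Mir10a of 0.31 and Mir10b of 1.13. The 3 genes of the miR-99/100 seed summed to 1798 counts in the C57BL/6J controls, 1176 in the exposed C57BL/6J sons and 464 in the C57BL/6J grandsons, while both Mir10 genes summed to 79645, 69192 and 123935. The sperm markers were lower in the C57BL/6J grandsons as well, with 9 of 9 log2 ratios against the C57BL/6J controls below 0 and a median of -1.05, and 0 of them called. The 9 liver markers were all called lower in the same comparison, with a median of -5.58, and their part in the miR-99/100 values was not tested. Mir100 was below 0 in both comparisons under each scaling tried. Scaled to sperm markers it was at -1.25 against the C57BL/6J controls and -1.06 against the exposed C57BL/6J sons, and no longer called. Against the C57BL/6J controls, Mir10b, at 2.43, and Mir125b-2, at 2.02, were then called higher, where 2307 of all genes were.

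The C57BL/6J grandsons and the FVB/N controls were both among the newer libraries, so this pair keeps the library set constant while strain, generation and lineage differ. In the C57BL/6J grandsons, 5 of 7 genes were called higher and 0 lower, against 2.50% higher and 0.707% lower among 16969 genes. MicroRNA genes as a class were also higher, with 53 of 130 called higher, 3 called lower and a median of 1.57. Mir10b had 4.08, Mir10a 3.62, Mir100 3.76, Mir125a 2.82 and Mir99b 2.58 log2 units, and their signs were the same under each scaling. Mir99a had 1.89 and Mir125b-2 1.21, and both turned below 0 when scaled to sperm markers. The 9 sperm markers were above 0 in the same comparison as well, with a median of 1.93 and 4 called higher, and so were the 8 liver markers with a ratio, of which 3 were called higher. The part of these cells was not tested. The value of Mir10b here is the one that chose the genes. Mir100, with 55.2 against 3.16 counts, and Mir125b-2, with 22.7 against 9.25, passed the minimum only through the C57BL/6J grandsons. The tally of called genes is therefore a description.

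Ratios between 2 genes in the same condition do not depend on how the conditions were scaled. Mir99b and Mir125a lie at the same locus, yet their ratio changed across conditions. There were 2.55 counts of Mir99b per count of Mir125a in the C57BL/6J controls, 1.65 in the exposed C57BL/6J sons, 0.555 in the C57BL/6J grandsons, 0.653 in the FVB/N controls and 0.584 in the exposed FVB/N sons. The log2 ratio of both genes differed by -2.20 (model SD 0.92) between the C57BL/6J grandsons and the C57BL/6J controls, and by -1.96 (model SD 0.97) between the FVB/N controls and the C57BL/6J controls. Both exceeded the model SD, which treats both genes as independent and is approximate. The change with DEHP in C57BL/6J, -0.62 (model SD 0.92), did not exceed it, and neither did that in FVB/N, -0.16 (model SD 0.87). The higher values were those of the 2 re-analysed conditions, and the 3 others lay between 0.555 and 0.653, so library set and condition cannot be told apart here.

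Mir99a had 25.4 counts per count of Mir125b-2 in the C57BL/6J controls, 17.7 in the exposed C57BL/6J sons, 6.58 in the C57BL/6J grandsons, 4.28 in the FVB/N controls and 7.19 in the exposed FVB/N sons. Mir100 had 1.10 counts per count of Mir99a in the C57BL/6J controls, 0.936 in the exposed C57BL/6J sons, 0.369 in the C57BL/6J grandsons, 0.0798 in the FVB/N controls and 0.168 in the exposed FVB/N sons. Mature miR-100 and miR-99a differ at the single base given with the sequences above, yet the ratio of their genes spanned a wide range. For the Mir10 genes the order was another, with 1.55 and 1.39 counts of Mir10b per count of Mir10a in the C57BL/6J controls and the exposed C57BL/6J sons, and 2.45, 1.79 and 1.95 in the C57BL/6J grandsons, the FVB/N controls and the exposed FVB/N sons, and none of the changes in this ratio exceeded its model SD.

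**Figure D3:**
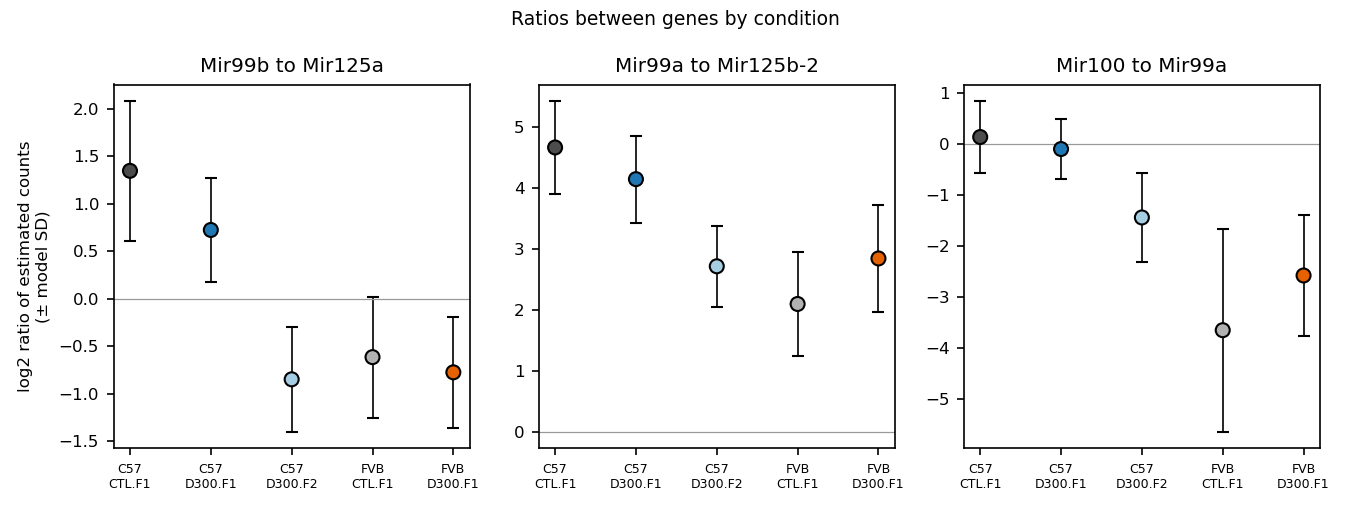
Log2 ratio of the estimated counts of 2 genes in the same condition (vertical axes) for 3 pairs in the 5 conditions, with the approximate model SD as error bars. The C57BL/6J controls and the exposed C57BL/6J sons have the highest ratio in each pair, for example 2.55 and 1.65 counts of Mir99b per count of Mir125a against 0.555 to 0.653 in the other 3 conditions.

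Host and neighbour genes of the microRNA genes did not pass the threshold between the strains. Of 11 listed symbols the table held 8, with none that holds Mir100 or Mir125b-1, and 0 of the 8 were called in any of the 7 comparisons. Over all genes, 0.0182% to 8.88% were called per direction and comparison, so 0 of 8 is near that share. In the FVB/N controls against the C57BL/6J controls their median log2 ratio was 0.85, with 7 of 8 above 0, and in the exposed FVB/N sons against the exposed C57BL/6J sons it was 1.45. Hoxd4, whose introns hold Mir10b, had 688 counts in the C57BL/6J controls and 1279 in the FVB/N controls, with model SDs of 4914 and 1222, so these values give no direction. Hoxb4, the neighbour of Mir10a, had 158 and 369.8 in the same conditions, and Spaca6 had 38.5 and 106. Mir99ahg, which holds Mir99a and Mir125b-2, had 113 and 98.5. A stable host transcript and a hairpin cut from its intron can differ in level, and these values compare counts only.

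Genes that make and load microRNAs were below the threshold throughout. Of 16 genes in the table, such as Drosha and Dgcr8, which cut the hairpin in the nucleus, Dicer1, which frees the mature duplex, and the Argonautes, 0 were called in any comparison, and their median in the FVB/N controls against the C57BL/6J controls was 0.16. Lin28b, which blocks let-7 maturation, had the lowest of their log2 ratios there, at -1.06, and Drosha the highest, at 0.68. Of 13 genes that have been reported as targets of these families, 0 were called in any comparison. Over all genes, 0.0182% to 8.88% were called per direction and comparison, so 0 called in lists this short is near that share. In the FVB/N controls against the C57BL/6J controls their median log2 ratio was 0.19, and the lowest was -1.24 for Tnfaip3, an inhibitor of NF-kB signalling and a miR-125 target. The other 9 let-7 genes summed to 88.7, 92.1, 211.5, 48.8 and 65.2 counts in the C57BL/6J controls, the exposed C57BL/6J sons, the C57BL/6J grandsons, the FVB/N controls and the exposed FVB/N sons, an order with the C57BL/6J grandsons first and the FVB/N controls last, as for Mir10b.

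**Figure D4:**
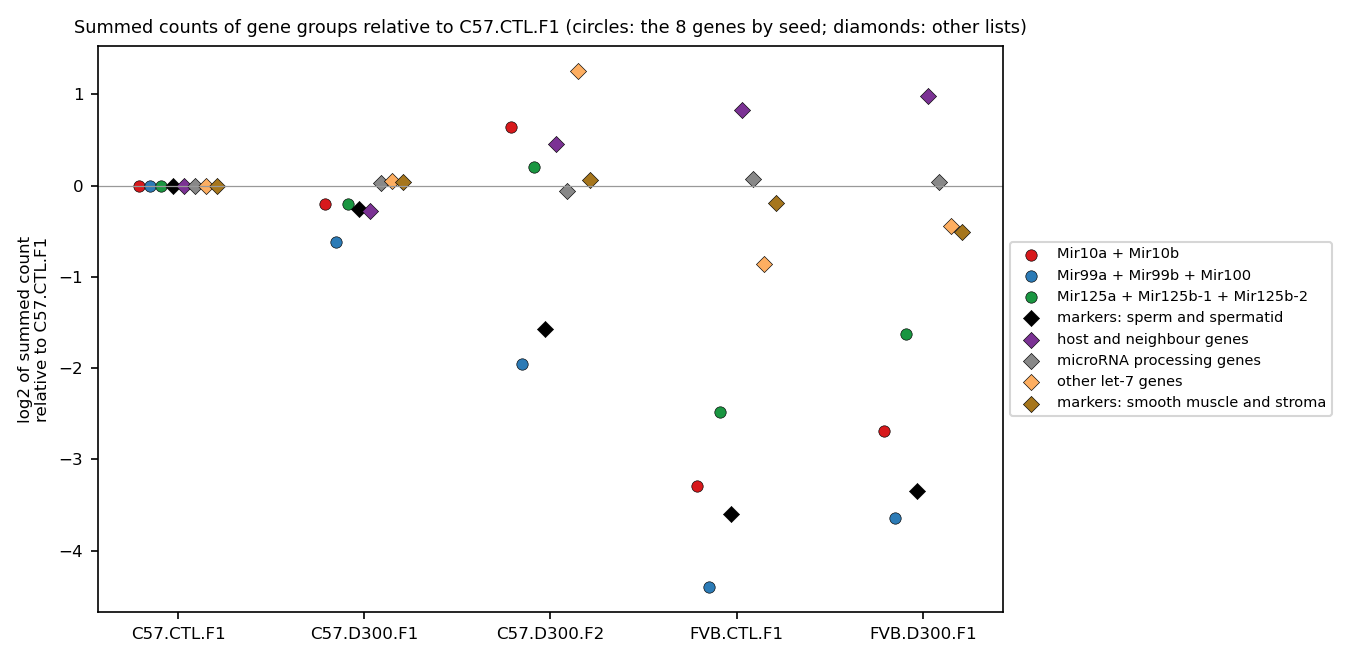
Log2 of the summed counts of gene groups relative to the C57BL/6J controls (vertical axis) in the 5 conditions, with the 8 genes by seed as circles and other gene lists as diamonds, 1 value per condition and no error bars. In the FVB/N controls the Mir10 sum (8132 counts against 79645) and the sperm markers (6989 against 84474) lie far below 0. The Mir10 sum turned above 0 when scaled to the summed sperm markers, in which Smcp, Odf1 and Prm2 weigh most. The host and neighbour genes lie above 0 and the processing genes near it.

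The pattern of Mir10b across the 5 conditions was set against that of 11237 genes with at least 100 counts in 1 condition and no failed estimate. Likeness was the root mean square difference of log2(count + 1) after centring each gene on its mean over the 5 conditions, and the points share the library sets. The least distant gene was Mir182, at 0.17 log2 units, followed by Sntg1, a syntrophin gene, at 0.24, Mir342 at 0.25 and Mir191 at 0.27. Mir182 had 285 counts in the C57BL/6J controls, 331 in the exposed C57BL/6J sons, 673 in the C57BL/6J grandsons, 37.3 in the FVB/N controls and 63.7 in the exposed FVB/N sons. Mir10a came in position 5, at 0.28. Mir125a followed in position 23, at 0.54, and Mir99a in position 239, at 0.86. Mir99b lay at 0.96 and Mir100 at 1.57, in positions 422 and 5073. Mir182, Mir342 and Mir191, of other seeds, had smaller distances than Mir10a, but for Mir342 and Mir191 the margin was small. The model SD of Mir10b was 0.45 to 1.13 times its count, and the distances take no account of it. They also use the level of Mir10b in the C57BL/6J grandsons, which chose the genes, so the order is a description. The split of reads between Mir10a and Mir10b is uncertain as given above.

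**Figure D5:**
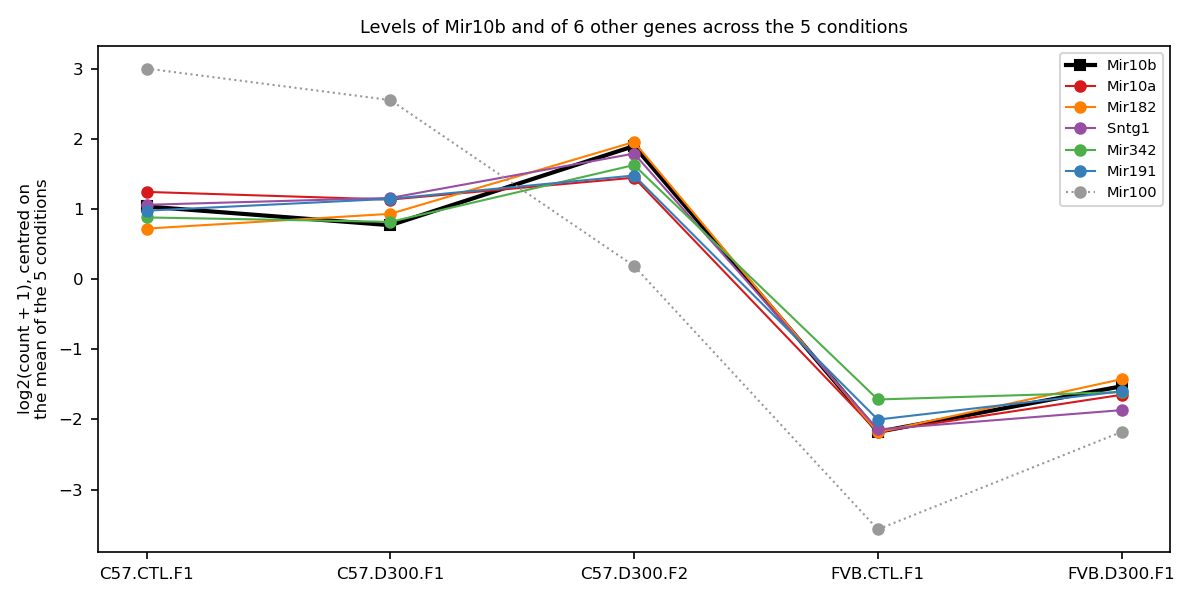
Log2(count + 1), centred on the mean of the 5 conditions (vertical axis), of Mir10b, of Mir10a, of the 4 genes closest to Mir10b and of Mir100, with 1 value per condition and lines that only join the values of a gene. Mir182 stays within a small distance of Mir10b (root mean square 0.17), whereas Mir100 (1.57) is highest in the C57BL/6J controls and drops from there to the C57BL/6J grandsons.

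By seed, the table held few other microRNA genes that could add to these families. No other microRNA gene with a RefSeq mature strand had the seed of miR-10 or of miR-99/100. Mir351 shares the miR-125 seed and had between 3.02 and 6.98 counts, and Mir6394 and Mir6367, with the same seed, were listed at 0. The miR-125 seed summed to 431 counts over Mir125a, Mir125b-1 and Mir125b-2 in the C57BL/6J controls, 498 in the C57BL/6J grandsons and 77.2 in the FVB/N controls.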

How the data were processed

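All-RNA-seq libraries were made by the authors from sperm RNA after ribosomal RNA removal, fragmentation and treatment of RNA ends, which reads all RNA types. Reads were called with CASAVA 1.8.2, clipped, mapped to mm10 with TopHat and quantified with Cuffdiff. The versions of TopHat and Cuffdiff, the annotation release and the Cuffdiff options are not given in the sources used here. The deposited signal values are 1 estimated fragment count per gene and condition, with the model variance, and 10 value columns were used. The status of each estimate was used to find failed estimates, and the other columns hold parts of that variance.

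Ratios used a pseudocount of 1, a minimum of 10 counts in 1 condition and a threshold of 2 log2 units over all genes, in 7 comparisons. Failed estimates were treated as missing. Single counts and per-gene values have no replicate check, and p-values were not computed. The model SD of a difference was the square root of the summed variances. The 95% exact interval for Mir100 was a Clopper-Pearson interval on rounded counts. The genes, lists and comparisons were chosen with earlier results of these data known. Named genes were the 8 genes, the 3 let-7 genes of their clusters, the 3 highest other microRNA genes per condition, the 3 genes and 3 microRNA genes closest to Mir10b, and list members with extreme ratios. The result for another list member is not reported here. Lars2, Crisp1, Hba-a1, Hoxd4, Hoxb4, Spaca6, Mir99ahg and the genes that share a seed were named in addition, after their values were seen. Sequences and coordinates came from RefSeq on GRCm38.p6, and overlaps from GENCODE M21. Alternatives were 5 scalings, 2 pseudocounts, 2 minimum counts, a lower threshold and a requirement that a difference exceed its model SD, and scaling to sperm markers was added after seeing the data. The procedure was tested on simulated data. The scripts ran in Python 3.11.15 with pandas 2.3.3, numpy 2.4.6, matplotlib 3.10.9 and scipy 1.17.1.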

Additional observations from a re-analysis of the deposited data

How the results depend on the processing

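Under the alternatives, 233 values of the comparisons stayed within the limits set (0.5 log2 units, or 1.5 times a count), 33 moved and 2 reversed. Of single genes, 389 values stayed, 63 moved and 8 reversed. The number of genes called lower in the C57BL/6J grandsons against the C57BL/6J controls fell from 2 to 1 under scaling to equal totals, the upper quartile, the other genes or median-of-ratios factors and with a pseudocount of 10. Over all genes, between 532 and 610 were called lower under these scalings. Scaled to the summed microRNA counts, the medians were -0.090 for DEHP in FVB/N, -0.37 and -0.28 for the C57BL/6J grandsons against the C57BL/6J controls and the exposed C57BL/6J sons, -2.27 for the FVB/N controls against the C57BL/6J controls and 1.33 for the C57BL/6J grandsons against the FVB/N controls, where 3 genes were called higher, and Mir10b had 54943 counts in the C57BL/6J grandsons and 9210.27 in the FVB/N controls. Over all genes, 43 were then called higher and 2752 lower in the C57BL/6J grandsons against the FVB/N controls. With a minimum of 100 counts the medians of the C57BL/6J grandsons were -0.53 against the C57BL/6J controls and -0.36 against the exposed C57BL/6J sons, with fewer genes left. At a threshold of 1 log2 unit, the C57BL/6J grandsons against the exposed C57BL/6J sons gave 1 gene higher and 3 lower. Requiring a difference above its model SD left 3 genes lower in the exposed FVB/N sons against the exposed C57BL/6J sons. For the lower threshold and for the model SD requirement, no share over all genes is given here.

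Scaled to sperm markers, both strain medians reversed, to 0.38 without DEHP and 0.70 with it, beside shifts of the median of all genes to 3.48 and 2.98. In these comparisons 1 gene was called higher and 1 lower without DEHP, and 0 lower with it. Over all genes, 16626 were then called higher and 202 lower without DEHP, and 15435 higher and 220 lower with it. Mir10a reversed to 0.17 and 0.31, Mir10b to 0.38 and 0.79, Mir99a to 0.42 and 0.70, Mir125a to 0.94 without DEHP, and Mir99b to 0.15 with it. For the C57BL/6J grandsons, 2 genes were higher and 0 lower against the C57BL/6J controls (median 1.75), 1 higher and 0 lower against the exposed C57BL/6J sons (median 1.55), and 2 higher against the FVB/N controls (median 0.81). Over all genes, 2307 were higher and 325 lower against the C57BL/6J controls. The counts over all genes were 801 and 314 against the exposed C57BL/6J sons, and 34 and 9195 against the FVB/N controls. Mir10b then had 14392 counts in the C57BL/6J controls, 14249 in the exposed C57BL/6J sons, 18747 in the FVB/N controls and 24679.9 in the exposed FVB/N sons. Apart from what scaling itself divides out, the cause was not tested. No paired analysis was possible because the values combine the 5 libraries of a condition, and for the same reason no library could be left out. The depth limits Mir125b-1, Mir100 in FVB/N and the clustered let-7 genes, which lay near or under 3 to 10 counts.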
